A study of Mus musculus with 32 samples.

Results

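Gene expression was compared between whole brains of wild-type mice at E16.5, late in gestation (E stands for embryonic day), and on the day of birth (postnatal day 0, PND0). All genes were used, and the 2 groups held 4 libraries each, 8 of the 32 in the study. Both groups were Dhcr7+/+ (WT) on strain C57BL/6J. Whether a library came from 1 brain is not stated in the labels, and libraries are treated here as separate brains. The other groups were WT brains at E12.5 and E14.5 and Dhcr7-/- brains (KO) at all 4 stages. DHCR7 reduces the immediate precursor of cholesterol, and mice without it model Smith-Lemli-Opitz syndrome. The KO brains of E16.5 and PND0 serve here to follow the same step in other animals, and the WT brains of E12.5 and E14.5 to place each gene in its course. Nothing in the labels says which brains were littermates, whether PND0 pups had fed, or what sex a brain was. P-values therefore measure the spread between these 8 libraries only.

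In this window the cells that line the ventricles of the mouse brain pass from making neurons to making glia. Intermediate progenitors of the cortex run down, neurons grow axons and assemble their first synapses, astrocytes and oligodendrocyte precursors multiply, and myelin follows after birth. Birth itself brings a change of fuel, of blood and of hormones, glucocorticoid and thyroid hormone among them.

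Library totals ran from 14895721 to 16577075 counts at E16.5 and from 16574943 to 20569715 counts at PND0. Levels are given as CPM, the counts of a gene scaled to a common library total. At these totals a level under 0.146 to 0.201 CPM (3 counts) cannot be told from 0, for counting error only. E16.5 replicate 1 stood apart: the rRNA gene CT010467.1 took 3.75% of its counts against 0.356 to 0.626% in the other 3 libraries. Its counts differed more from the other 3 (chi-square per degree of freedom of 41.8 to 43.1) than those differed among themselves (6.24 to 14.7). The chi-square includes the rRNA gene, so it is not separate from the rRNA share, and it was not computed without that gene. At PND0 the rRNA gene took 1.80 to 2.79% of counts, and the pairs gave 9.42 to 20.5. Both groups had 2 libraries with the Y-linked gene Ddx3y above 1 CPM. Markers of pituitary summed to 0.326 to 1.99 CPM at E16.5 and 0.697 to 2.26 CPM at PND0. Those of skeletal muscle summed to 7.84 to 13.6 and 7.34 to 10.1 CPM. Markers of the eye summed to 5.48 to 32.9 CPM at E16.5 and 6.16 to 8.42 CPM at PND0.

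Libraries of E12.5 and E16.5 shared a pattern against those of E14.5 and PND0, and this bears on every result of the E16.5 to PND0 step. Well expressed genes, with a mean of 10 CPM or more in 1 of the 2 groups, numbered 11293 among those tested. For 816 of them (7.23%) all 8 WT libraries of E14.5 and PND0 lay above all 8 of E12.5 and E16.5, and for 898 (7.95%) all 8 lay below; both are called alternating genes here. The transcription corepressor gene Lcor was one of them, with mean levels of 41.5, 4.98, 27.3 and 2.75 CPM at the 4 stages in order. Another was Tomm7, a subunit of the mitochondrial protein import pore, at 49.9, 16.1, 51.5 and 9.86 CPM. Genes low at E14.5 and PND0 had short transcripts, with a median of 2059.5 nt (longest annotated transcript) against 3702 nt over all well expressed genes and 4814.5 nt for genes high at those stages. Across the 11290 well expressed genes tested in both, the log2 fold change from E16.5 to PND0 correlated with that from E12.5 to E14.5, a step with no library in common (Pearson's r = 0.676, Spearman's rho = 0.683). Genes are not independent replicates, since all values of a step come from the same 8 libraries. Whether an alternating gene follows stage or a property of the libraries cannot be told apart in this step, so the change from E14.5 to PND0 is given below for named alternating genes, and for each named gene that passed from E16.5 to PND0 but did not pass, or went the other way, from E14.5. The 2 comparisons share the PND0 libraries.

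**Figure D1:**
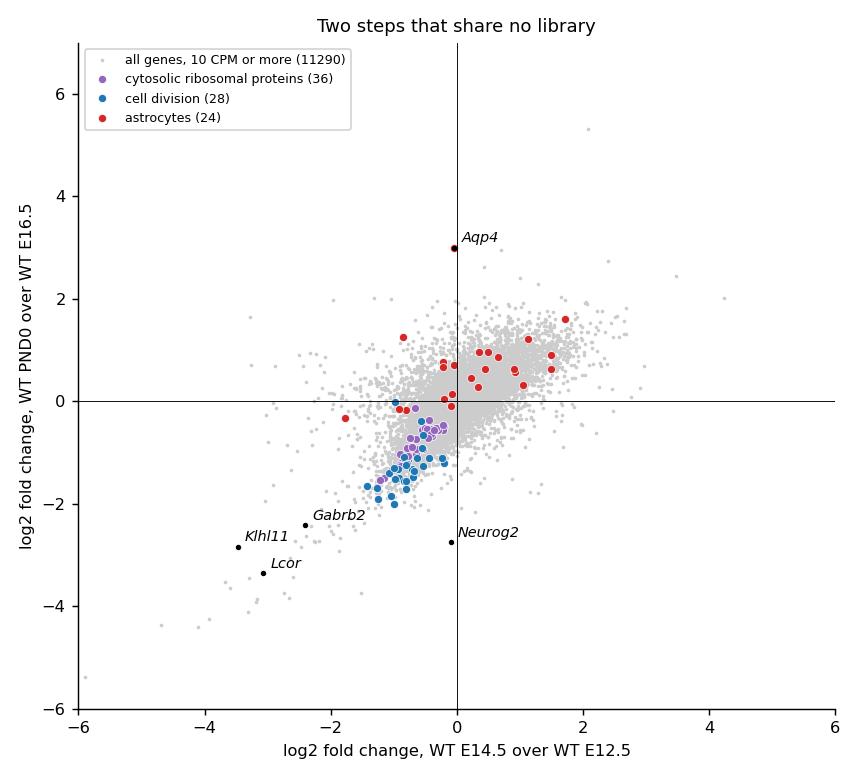
Each grey point is a gene with 10 CPM or more at E16.5 or PND0 in WT brain, placed by its log2 fold change from E12.5 to E14.5 (x axis) and from E16.5 to PND0 (y axis). Ribosomal protein genes (purple) lie low on both axes, Lcor and Klhl11 lie at the lower left, and Aqp4 and Neurog2 moved in the later step with values near 0 in the earlier one.

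From E16.5 to PND0, 9282 of 17438 genes passed the threshold (53.2%, adjusted p under 0.05), 4531 higher (26%) and 4751 lower (27.2%) at PND0. Of the 11293 well expressed genes, 7062 passed (62.5%): 3462 rose (30.7%) and 3600 fell (31.9%). Without E16.5 replicate 1 these were 3418 and 3406. Most changes were small, and 85.5% of the well expressed genes that passed changed less than 2-fold. Past 2-fold, 523 rose and 500 fell. Alternating genes made up 81 of the former and 247 of the latter, and those 247 had a median transcript length of 1012.5 nt. With the alternating genes taken out of the same fit, 2684 well expressed genes rose and 2706 fell. Nothing was refitted, so the call of no other gene could change. Of the genes that rose, 1334 had group means that rose through all 4 stages, and of those that fell, 1143 had means that fell through all 4. Over all 11293 well expressed genes, whether they passed or not, 1994 had means that rose through all 4 stages and 1670 had means that fell. A gene that passed already moved in that direction in the last of the steps. From E14.5 to PND0, 7998 of the 11293 passed (70.8%), 3830 higher (33.9%) and 4168 lower (36.9%). In the gene lists below, counts are of well expressed members, to be read against the 30.7% and 31.9%. Values of single libraries stand in the order of replicates 1 to 4, other levels are group means (± SD, n = 4), and a value alone in brackets after a gene or its levels is the log2 fold change of a gene that passed.

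Genes of cell division fell nearly as a block. All 28 on the list were well expressed; 27 fell, none rose, and the median log2 fold change was -1.32. The proliferation marker Mki67 stood at 124, 117, 173 and 163 CPM in the 4 E16.5 brains and at 40.1, 39, 33.7 and 47.2 CPM in the 4 PND0 brains, with every PND0 library below every E16.5 library (log2 change -1.90, SE 0.14, adjusted p = 4.31e-07). Top2a, the topoisomerase that untangles replicated chromosomes, fell 3.6-fold, from 170.3 ± 30.6 to 49 ± 4.42 CPM (SD, n = 4 each; log2 change -1.85, SE 0.12, adjusted p = 8.6e-08). Ccnb1, the cyclin of mitotic entry, fell from 41.5 ± 8.39 to 15.5 ± 3.89 CPM (log2 change -1.47, SE 0.19, adjusted p = 3.93e-05), and Mcm2, a subunit of the replicative helicase, from 46.9 ± 9.53 to 23 ± 3.45 CPM (log2 change -1.08, SE 0.15, adjusted p = 3.33e-05). The chromatin protein gene Hmgb2 had the largest fall of the list, from 137 ± 25.6 to 35.6 ± 6.42 CPM (log2 fold change -1.99, SE 0.15). The member that did not pass was Ccnd1, a G1 cyclin, at 35.1 and 36.3 CPM (log2 fold change -0.0059). None of the 28 was an alternating gene. All 28 fell from E14.5 to PND0, with a median of -2.23.

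The promoters of this list were read from RefSeq (build GRCm38.p6), 250 bases before to 50 bases after the start of transcription, because its members moved together. For 23 of the 28 genes a promoter was listed. The cell cycle genes homology region (CHR, TTTGAA, either strand) was present in 12 of these 23 promoters (52.2%), against 5878 of 32851 promoters of all genes (17.9%). The CCAAT box, either strand, was present in 21 of 23 (91.3%) against 12289 of all (37.4%). An E2F site, searched as TTTGGCGC or TTCCCGCC on either strand, was present in 4 of 23 (17.4%) against 879 of all (2.68%). High shares were not particular to this list, although its own were the largest. The next largest were the CHR in 3 of 6 promoters of skin markers (50%) and the CCAAT box in 16 of 20 of cholesterol synthesis (80%). For E2F it was 3 of 18 promoters of nuclear genes of oxidative phosphorylation (16.7%). Of the cholesterol synthesis genes 9 rose and 3 fell. In the 20 promoters of the intermediate progenitor list described next, the CHR was present in 2 (10%) and the CCAAT box in 12 (60%). A match is a description of the letters and not evidence of binding. The 180 bases before the start are shown for the list's 4 anchor genes on the strand of the gene, 5′ to 3′, with CHR and CCAAT matches on either strand in capitals. Mki67 lies at chr7:135716380-135716559, Top2a at chr11:99024190-99024369, Ccnb1 at chr13:100786487-100786666 and Mcm2 at chr6:88898781-88898960, all on the minus strand. In these 180 bases Top2a had 4 CCAAT boxes, and Ccnb1 had 2 and no CHR.
Mki67: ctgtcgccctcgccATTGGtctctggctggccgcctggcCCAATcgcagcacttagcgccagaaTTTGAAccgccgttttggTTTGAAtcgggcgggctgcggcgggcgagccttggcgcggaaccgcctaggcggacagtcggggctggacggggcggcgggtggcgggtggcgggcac
Top2a: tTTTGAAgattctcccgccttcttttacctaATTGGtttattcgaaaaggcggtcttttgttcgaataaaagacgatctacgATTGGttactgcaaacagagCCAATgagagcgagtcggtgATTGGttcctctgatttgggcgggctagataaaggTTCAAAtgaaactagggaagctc
Ccnb1: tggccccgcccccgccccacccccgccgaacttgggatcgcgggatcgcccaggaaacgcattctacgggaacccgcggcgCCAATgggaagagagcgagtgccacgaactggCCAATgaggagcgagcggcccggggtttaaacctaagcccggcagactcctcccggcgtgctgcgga
Mcm2: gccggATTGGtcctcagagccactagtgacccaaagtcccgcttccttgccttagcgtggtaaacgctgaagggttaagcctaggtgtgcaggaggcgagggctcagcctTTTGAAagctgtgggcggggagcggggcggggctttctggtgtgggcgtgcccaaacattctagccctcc

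Neurogenic progenitors declined as well. Of the 17 genes of intermediate progenitors and proneural factors, 15 were well expressed; 13 fell and none rose (median -1.03). Neurog2, the proneural transcription factor of the cortex, stood at 60.3, 47.5, 85.7 and 90.3 CPM at E16.5 and 7.79, 16.53, 7.57 and 11.8 CPM at PND0. The groups did not overlap, and the fall was 6.75-fold (log2 change -2.75, SE 0.32, adjusted p = 0.00018). At E14.5 the mean had been 159 CPM. Eomes, which marks intermediate progenitors of the cortex, fell from 76.6 ± 20.1 to 27.7 ± 9.1 CPM (log2 change -1.52, SE 0.31, adjusted p = 0.00459), a call that the replicate number as a block left at adjusted p = 0.0513 with a log2 fold change of -1.53, and the zinc finger gene Insm1 from 115 ± 30 to 56.1 ± 11.7 CPM (log2 change -1.08, SE 0.22, adjusted p = 0.00344). Gadd45g, a growth arrest gene switched on in newborn neurons, fell from 31.5 to 7.84 CPM (log2 fold change -2.05), and Nhlh1, a factor of newly born neurons, from 11.6 to 3.03 CPM (-1.96). In bulk tissue fewer cells of a type and less RNA per cell cannot be told apart, here and in every result on cell types that follows.

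Radial glia, the stem cells of the ventricular wall, gave a divided picture. Among their 20 genes 12 fell and 2 rose (median -0.41). The stem cell filament gene Nes fell from 195, 187, 242 and 243 CPM to 95.6, 96.2, 104 and 102 CPM, without overlap (log2 change -1.17, SE 0.088, adjusted p = 1.83e-07). Pax6 and Emx2, transcription factors of the cortical ventricular zone, fell too, with log2 fold changes of -0.92 and -1.06 (adjusted p = 0.0022 and 8.33e-06). Sox2, shared by stem cells and glia, fell from 115 to 89 CPM (-0.42, adjusted p = 0.0132). Fabp7, the brain lipid-binding protein of radial glia, had risen from 307 to 563 CPM between E14.5 and E16.5 and stood at 451 CPM at PND0 (log2 change -0.37, SE 0.09, adjusted p = 0.00296), higher than at E14.5 (0.54). With an offset for transcript length the log2 value of Fabp7 was 0.11 (adjusted p = 0.321), so its direction depends on that setting. The 2 genes that rose, the glutamate transporter gene Slc1a3 and the milk fat globule gene Mfge8, are both also made by astrocytes: Slc1a3 went from 184 ± 6.13 to 293 ± 23.4 CPM (log2 change 0.62, SE 0.071, adjusted p = 5.93e-06) and Mfge8 from 91.2 ± 8.23 to 131 ± 11.7 CPM (log2 change 0.47, SE 0.083, adjusted p = 0.000264).

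**Figure D2:**
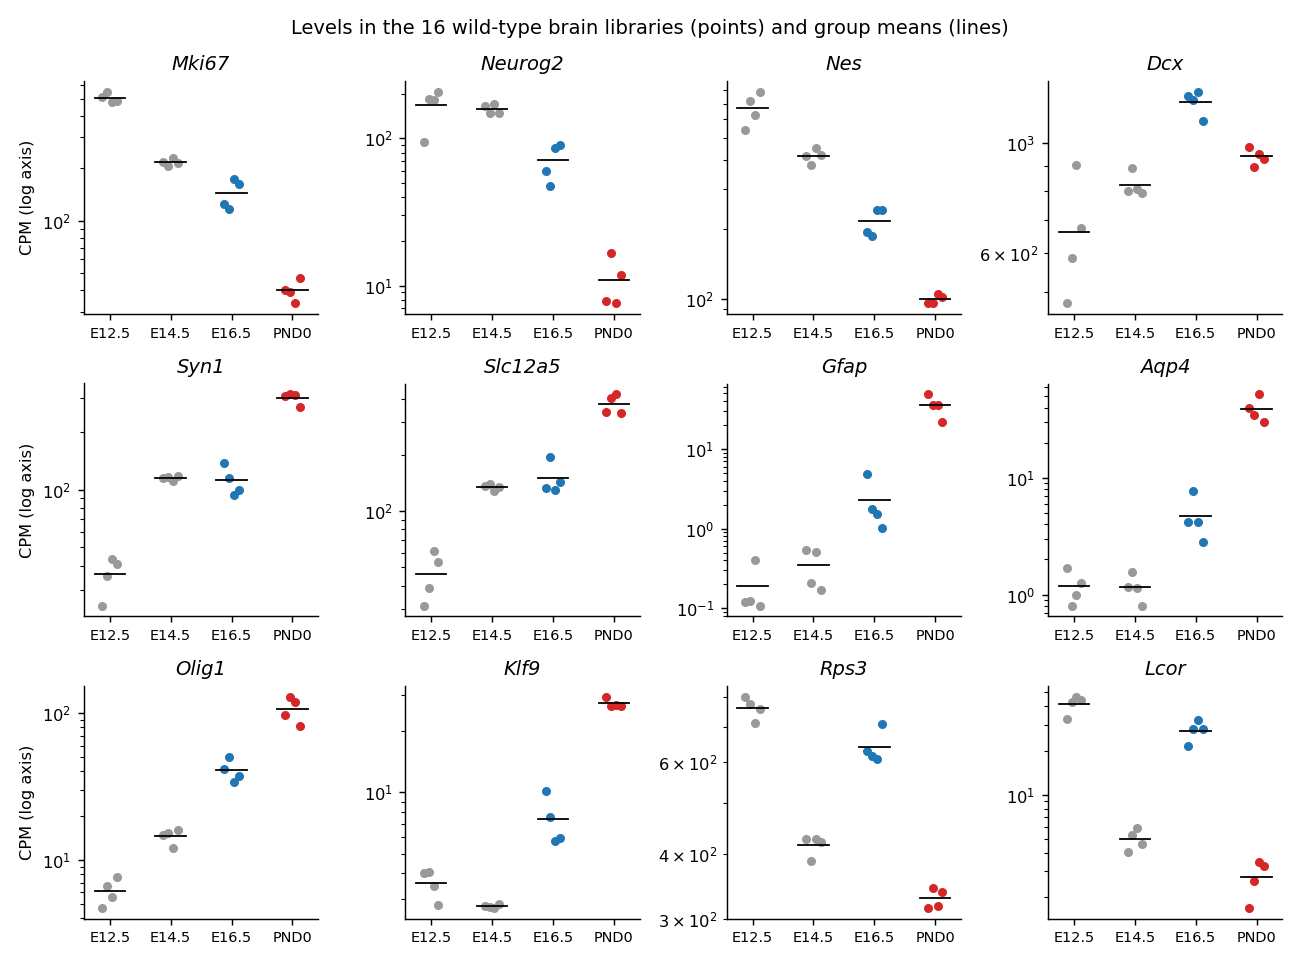
Points are the 16 WT libraries at 4 stages (x axis) and lines are group means, in CPM on a log axis, with E16.5 in blue and PND0 in red. Mki67, Neurog2 and Nes fell to their lowest level at PND0, Gfap, Aqp4, Olig1 and Klf9 reached their highest, and Rps3 and Lcor were high at E12.5 and E16.5 and low at E14.5 and PND0.

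Genes of growing and migrating neurons moved both ways. Of 24, 7 rose and 13 fell (median -0.26). The balance was the other way from E14.5 to PND0, with 14 higher and 8 lower (median 0.20). Dcx, the microtubule protein of migrating neurons, stood at 1247, 1221, 1271 and 1111 CPM at E16.5 and 984, 896, 952 and 927 CPM at PND0 (log2 change -0.42, SE 0.071, adjusted p = 0.000185). The groups did not overlap, and its E16.5 mean was the highest of the 4 stages, so that from E14.5 Dcx rose (0.18). Sox11, a transcription factor of immature neurons, fell from 1215 ± 115 to 869 ± 68 CPM (log2 fold change -0.54), and Igfbpl1, expressed in newly formed neurons, from 427 ± 82 to 169.7 ± 32.8 CPM (-1.38). The imprinted gene Nnat lost more CPM than any other gene, from 2995 ± 418 to 1587 ± 199 (log2 change -0.97, SE 0.11, adjusted p = 8.56e-06). The tubulin gene Tubb2b fell from 3609.6 to 2545 CPM (-0.56), having risen from E14.5 (0.22 from E14.5 to PND0), and the actin-binding gene Tagln3 from 199.6 to 97.3 CPM (-1.09). In the other direction went the adhesion molecules of axon tracts: Ncam1 rose from 631 ± 60.4 to 1154 ± 133 CPM (log2 change 0.82, SE 0.095, adjusted p = 6.8e-06) and L1cam from 423 ± 46.6 to 774 ± 80.4 CPM (log2 change 0.82, SE 0.093, adjusted p = 6.14e-06). Stmn2, a tubulin-binding protein of growth cones, rose from 1034 to 1387 CPM (0.37). The growth cone gene Gap43 stood at 745 and 826 CPM and did not pass (adjusted p = 0.413). With the offset for transcript length it passed (0.33, adjusted p = 0.00712).

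Presynaptic genes rose. Of the 28 synaptic vesicle and neurofilament genes 27 were well expressed, and 21 of them rose while none fell (median 0.67). Syn1, a synapsin that tethers vesicles, stood at 138, 115, 93.5 and 99.9 CPM at E16.5 and 309.9, 316, 312 and 269 CPM at PND0. All 4 PND0 brains were above all 4 of E16.5 (log2 change 1.38, SE 0.11, adjusted p = 4.32e-07). Syt1, the calcium sensor of release, rose 2.07-fold from 178 ± 29.6 to 382 ± 52.9 CPM (adjusted p = 1.53e-05). The vesicle protein gene Syp rose from 163 to 256 CPM (0.60), the membrane fusion gene Snap25 from 169 to 245 CPM (0.48), and the vesicle protein gene Sv2b from 20.8 to 59.9 CPM (1.47). The neurofilament genes Nefl, Nefm and Nefh were each highest at E16.5 in replicate 2: Nefl stood at 96.2, 164, 97 and 104 CPM at E16.5 and 155, 154, 206 and 151 CPM at PND0, overlapping (log2 change 0.47, SE 0.19, adjusted p = 0.0708). Without E16.5 replicate 2, Nefl passed (log2 fold change 0.70, adjusted p = 9.03e-05). It also passed with DESeq2 (0.0078) and in a fit with the KO libraries of both stages (0.0311). From E14.5 to PND0, 26 of the 27 rose.

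Postsynaptic genes rose too. Of 28 scaffold and kinase genes 22 rose and none fell (median 0.66). Camk2b and Camk2a, subunits of the calcium-dependent kinase of the synapse, rose from 277 ± 78.7 to 560.4 ± 49 CPM (log2 change 0.96, SE 0.17, adjusted p = 0.000703) and from 71.4 ± 19.7 to 149 ± 27.3 CPM (log2 change 1.01, SE 0.21, adjusted p = 0.00335). The scaffold gene Dlgap1 rose from 65.7 to 171 CPM (1.33), Shank1 from 457 to 812 CPM (0.77) and Dlg4, which encodes PSD-95, from 315 to 465 CPM (0.51). Dlg4 was an alternating gene, with a log2 fold change of 0.40 from E14.5 to PND0.

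Among glutamate receptor genes, 18 of 21 well expressed members rose and 1 fell (median 0.91). Grin1, the obligatory subunit of NMDA receptors, rose 2.56-fold, from 58.1, 60.3, 50.6 and 47.1 CPM to 135, 151, 146 and 142 CPM, without overlap (log2 change 1.36, SE 0.086, adjusted p = 5.1e-08). The NMDA subunit gene Grin2a, typical of mature synapses, rose from 5.44 ± 1.21 to 13.8 ± 1.27 CPM (log2 change 1.29, SE 0.17, adjusted p = 1.75e-05). Grin2b, the subunit of the embryonic brain, stood at 295, 199, 206 and 179 CPM at E16.5 and 355, 309, 374 and 231 CPM at PND0, overlapping (log2 change 0.48, SE 0.19, adjusted p = 0.0552). Without E16.5 replicate 1 Grin2b passed (0.66, adjusted p = 0.00155), and likewise without PND0 replicate 4 (0.60, adjusted p = 0.0115). It also passed with the replicate block (0.000723) and in a fit with the KO libraries of both stages (0.0258). The same held with a covariate of sex-linked genes (0.0195) and with the length offset (0.0345). The AMPA receptor subunits parted: Gria1 rose from 151 ± 31.1 to 290.4 ± 17.5 CPM (log2 change 0.89, SE 0.12, adjusted p = 2.82e-05), while Gria2, the subunit that limits calcium entry, fell from 749 ± 42.5 to 415 ± 9.63 CPM (log2 change -0.90, SE 0.069, adjusted p = 2.04e-07). Gria2 had stood at 191 and 243 CPM at E12.5 and E14.5, so E16.5 was its highest stage, and from E14.5 to PND0 it rose (0.76).

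Genes of inhibition rose, the chloride exporter among them. Of 18 well expressed GABA and glycine receptor and chloride transporter genes 15 rose and 2 fell (median 0.77). Slc12a5 encodes KCC2, the exporter that lowers chloride in mature neurons, and stood at 133, 195, 130.1 and 144 CPM at E16.5 and 339, 403, 423 and 334 CPM at PND0. The groups did not overlap and the rise was 2.4-fold (log2 change 1.26, SE 0.13, adjusted p = 7.49e-06). Slc12a2, which encodes the chloride importer NKCC1, was lower at PND0, at 79.1 ± 4.37 against 53.5 ± 4.21 CPM (log2 change -0.62, SE 0.077, adjusted p = 1.32e-05), but it was an alternating gene, and between E14.5 and PND0 its means were 52.7 and 53.5 CPM (adjusted p = 0.893). Slc12a5 between those stages rose from 135 to 375 CPM (1.46). The GABA-A subunit gene Gabra5 rose by 1.31 on the log2 scale, and Gabbr2, a GABA-B receptor subunit, rose from 61.7 to 199 CPM (1.64). Gabra2 did not pass, at 49 and 58.4 CPM (adjusted p = 0.361). Gabrb2 was the other gene that was lower, and it alternated: its 4 stage means were 20.2, 3.83, 41.6 and 8.12 CPM, and from E14.5 to PND0 it was higher (1.06, adjusted p = 0.000313).

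Of 29 well expressed voltage-gated channel genes, 22 rose and 1 fell (median 0.62). Hcn2, a pacemaker channel, rose from 15.6 ± 2.7 to 61 ± 10.2 CPM (log2 change 1.91, SE 0.14, adjusted p = 2.76e-07). The neuronal sodium channels differed from each other. Scn2a rose from 103 ± 10.2 to 142 ± 23.8 CPM (log2 change 0.41, SE 0.11, adjusted p = 0.00632) and Scn8a from 98.8 ± 10.4 to 141 ± 8.45 CPM (log2 change 0.46, SE 0.083, adjusted p = 0.000304), whereas Scn3a, the channel of the embryonic brain, fell from 169 ± 21.2 to 133 ± 10 CPM (log2 change -0.40, SE 0.09, adjusted p = 0.00193). Scn3a rose from E14.5 to PND0 (0.49, adjusted p = 2.8e-06), and in a fit of all 16 WT libraries, in which the 4 stages share 1 estimate of the spread, its fall from E16.5 did not pass (adjusted p = 0.0635). Scn1a stood at 38.8 and 38.1 CPM (adjusted p = 0.559).

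**Figure D3:**
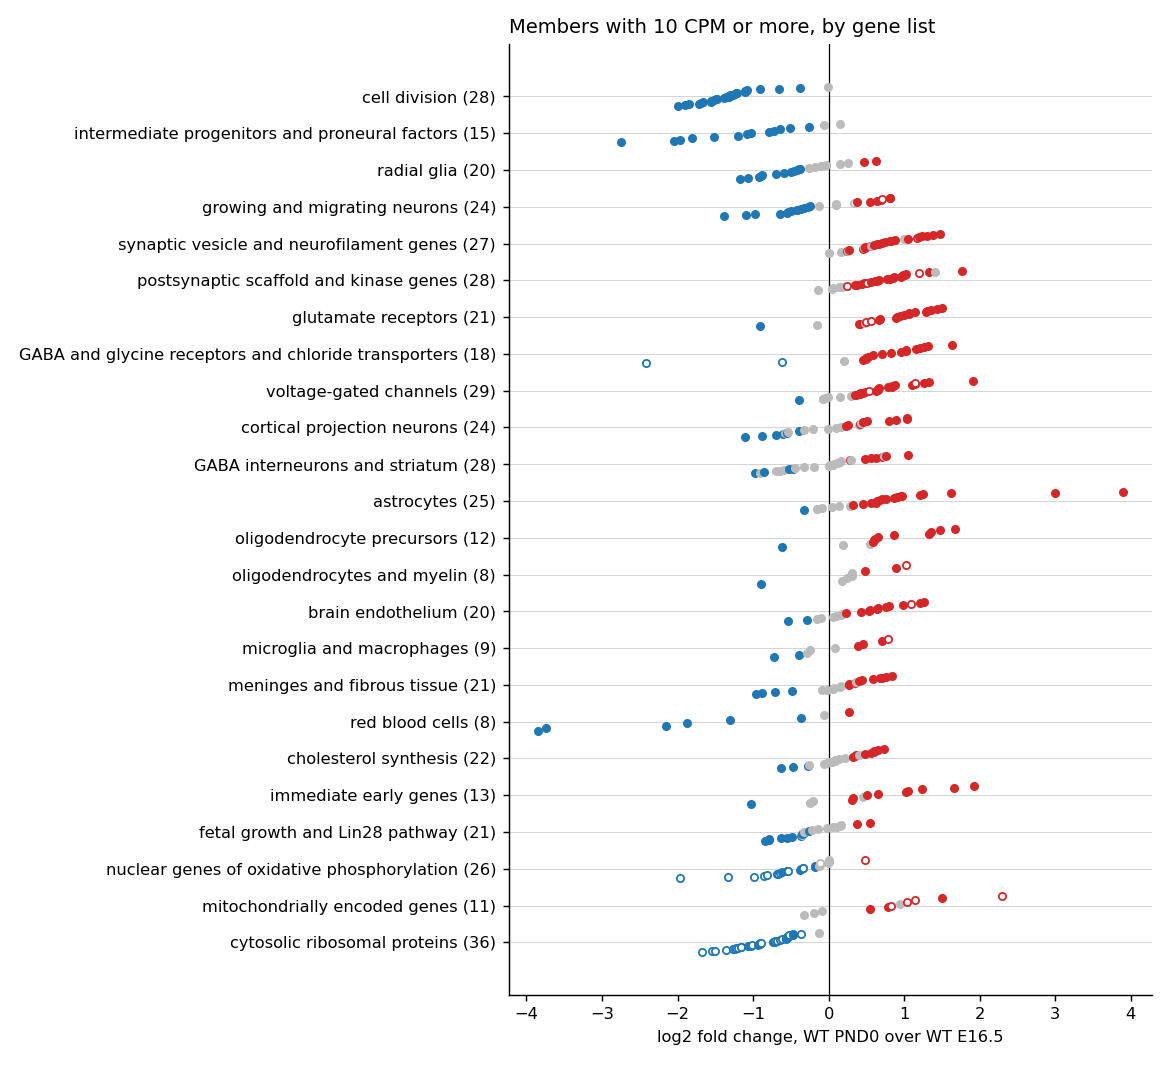
Each point is a well expressed member of a gene list (number in brackets), placed by its log2 fold change from E16.5 to PND0 in WT; red and blue passed the threshold, grey did not, and open circles are alternating genes. Cell division genes lie left of 0 and synaptic and receptor genes mostly right of it, and the lists with the most open circles are ribosomal proteins (28) and nuclear genes of oxidative phosphorylation (15).

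Astrocyte genes rose, and some of the largest gains of the whole step were among them. Of 25 well expressed members (28 listed) 18 rose and 1 fell (median 0.64). Gfap, the astrocyte filament gene (chr11:102887336-102900912, minus strand, build GRCm38), stood at 4.89, 1.74, 1.51 and 1.03 CPM in the E16.5 brains and at 48.7, 35.5, 35.2 and 21.9 CPM in the PND0 brains. All 4 PND0 brains were far above all 4 of E16.5, and the rise was 14.9-fold (log2 change 3.90, SE 0.47, adjusted p = 0.000226). Aqp4, the water channel of astrocyte endfeet, stood at 4.18, 7.65, 4.17 and 2.83 CPM at E16.5 and 39.7, 34.9, 52.3 and 30.1 CPM at PND0, a 7.97-fold rise (log2 change 2.99, SE 0.28, adjusted p = 1.16e-05). E16.5 replicate 1 was the highest of its group for Gfap and replicate 2 for Aqp4. Outside the list, Agt, the angiotensin precursor made by brain astrocytes, rose from 0.589 ± 0.366 to 13.1 ± 5.04 CPM (log2 change 4.41, SE 0.38, adjusted p = 1.33e-06). Slc6a11, the GABA transporter of astrocytes, went from 71.9 ± 11.5 to 229 ± 24.6 CPM (log2 change 1.61, SE 0.11, adjusted p = 1.52e-07), having stood at 6.24 CPM at E12.5. Apoe rose from 183 ± 13.5 to 321 ± 28.8 CPM (log2 change 0.76, SE 0.08, adjusted p = 2.99e-06), and Sparcl1, a secreted synapse-promoting protein, from 211 to 399 CPM (0.87). The glutamate transporter gene Slc1a2 and the aldolase gene Aldoc rose by 0.45 and 0.32 on the log2 scale, the latter not passing in a fit of all 16 WT libraries (adjusted p = 0.21). The list's member that fell was Id3, a target of BMP signalling (-0.33, adjusted p = 0.0366), and this call was lost without E16.5 replicate 3 or 4 or PND0 replicate 1 or 4 (adjusted p of 0.0743, 0.099, 0.118 and 0.0948), in the fit of all 16 WT libraries (0.232), in the fit with the KO libraries of both stages (0.202) and with the length offset (0.771). From E14.5 Id3 did not pass (adjusted p = 0.783). Without PND0 replicate 3, 2 members of the list fell.

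The oligodendrocyte lineage had risen at the level of its precursors. Of 12 well expressed precursor genes (18 listed) 9 rose and 1 fell (median 0.63). The lineage factor Olig1 stood at 41.8, 50.4, 33.9 and 37.4 CPM at E16.5 and 97.5, 129.6, 119 and 81.1 CPM at PND0, without overlap (log2 change 1.33, SE 0.16, adjusted p = 3.44e-05). Pdgfra, the growth factor receptor of the precursors, rose from 48.6 ± 1.55 to 75.3 ± 14.7 CPM (log2 change 0.58, SE 0.12, adjusted p = 0.000899), Olig2 from 24.5 ± 1.81 to 39.8 ± 2.42 CPM (log2 change 0.65, SE 0.092, adjusted p = 3.83e-05) and Sox10 from 9.71 ± 1.76 to 18.3 ± 3.56 CPM (log2 change 0.86, SE 0.17, adjusted p = 0.000523). In a fit of all 16 WT libraries Pdgfra and Sox10 did not pass (adjusted p = 0.166 and 0.145). Gpr17, a receptor of cells about to differentiate, rose from 9.41 ± 3.02 to 31.3 ± 6.09 CPM (log2 change 1.68, SE 0.21, adjusted p = 3.7e-05) and the precursor membrane gene Lhfpl3 from 14.8 to 42.5 CPM (1.47). The precursor list's member that fell was Fabp5, a fatty acid carrier also made by other cells (-0.62; 0.15 from E14.5, a rise). Myelin genes were less uniform: of 8 well expressed (19 listed) 3 rose and 1 fell. Without PND0 replicate 4, 5 rose. Mbp, the basic protein of myelin, rose from 23.5 ± 3.77 to 49.5 ± 3.65 CPM (log2 change 1.02, SE 0.11, adjusted p = 4.64e-06); it was an alternating gene, with a log2 fold change of 0.46 from E14.5. The enzyme gene Cnp rose from 22 ± 2.63 to 31.9 ± 3.4 CPM (log2 change 0.48, SE 0.12, adjusted p = 0.00274) and the tetraspanin gene Tspan2 from 14.1 to 27.3 CPM (0.90). Cldn11, a tight junction gene of myelin that meningeal cells also make, fell from 45.6 to 25.5 CPM (-0.89) but did not pass from E14.5 (adjusted p = 0.715).

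**Figure D4:**
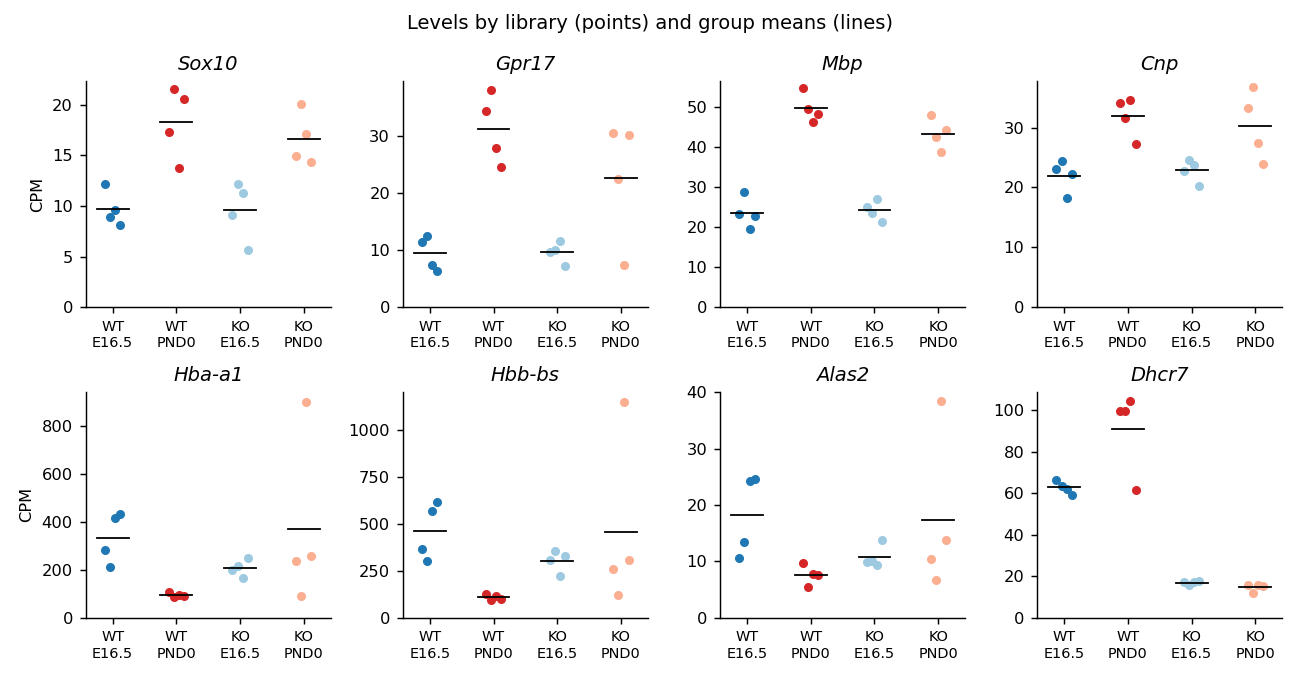
Points are libraries and lines are group means, in CPM, for WT and KO brains at E16.5 and PND0. Sox10, Gpr17, Mbp and Cnp are higher at PND0 in WT, and the globin genes and Alas2 are lower at PND0 in WT, while in KO the 2 stages overlap for these 3 genes and 1 PND0 library is far above the others.

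Microglial genes moved both ways. Of 9 well expressed marker genes (24 listed) 4 rose and 2 fell (median 0.079). With 1 library left out, 2 rose without E16.5 replicate 2 or 3 or PND0 replicate 1 or 2, and 1 fell without E16.5 replicate 3 or 4 or PND0 replicate 1, 2 or 4. The genes that fell were C1qa (-0.40, adjusted p = 0.0352, and up to 0.114 without E16.5 replicate 1, 3 or 4 or PND0 replicate 1, 2 or 4) and C1qc (-0.72, adjusted p = 0.000637) of the complement. Both rose from E14.5 to PND0, by 0.80 and 0.66, and with the length offset C1qa did not pass from E16.5 (adjusted p = 0.995). Over the list 7 rose and none fell from E14.5. Laptm5, a lysosomal protein of blood-derived cells, rose by 0.79 on the log2 scale but alternated and did not pass from E14.5 (adjusted p = 0.512). The growth factor receptor gene Csf1r stood at 26.2, 17.3, 22.5 and 26.7 CPM at E16.5 and 38.1, 35.6, 34 and 24.6 CPM at PND0, overlapping (log2 change 0.46, SE 0.15, adjusted p = 0.0196), and the chemokine receptor gene Cx3cr1 rose by 0.39 on the log2 scale (adjusted p = 0.0349). The call of Csf1r was lost without E16.5 replicate 2 or 3 or PND0 replicate 1 or 2 (adjusted p of up to 0.0636), and that of Cx3cr1 without E16.5 replicate 2, 3 or 4 or PND0 replicate 1, 2 or 3 (up to 0.102). With the length offset neither passed (adjusted p = 0.131 and 0.202), and Cx3cr1 did not pass without the filter on low counts (0.0621), in the fit with KO libraries (0.301) or from E14.5 (0.0524). PND0 replicate 4 was the lowest of its group for Cx3cr1, at 10.4 CPM against 14.7 to 14.9 CPM. Without it the log2 fold change of Cx3cr1 was 0.50 (adjusted p = 0.00475). Complement C1qb stood at 14.2 and 12.1 CPM and passed only without E16.5 replicate 2 (adjusted p = 0.107 with it and 0.0234 without).

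Most endothelial genes rose. Of 20 well expressed endothelial genes 12 rose and 2 fell (median 0.48). Vwf, the clotting factor carrier of endothelium, rose from 21.3, 14.7, 20.8 and 17 CPM to 75, 64.8, 95.4 and 61.9 CPM, without overlap (log2 change 1.96, SE 0.15, adjusted p = 4.47e-07), and Flt1, a VEGF receptor, from 24.8 ± 1.63 to 59.6 ± 17.2 CPM (log2 change 1.21, SE 0.20, adjusted p = 0.000461). The glucose transporter gene of the blood-brain barrier, Slc2a1, rose from 70.5 ± 3.88 to 106 ± 14.46 CPM (log2 change 0.53, SE 0.093, adjusted p = 0.000244), whereas the tight junction gene Cldn5 fell from 81.3 ± 3.17 to 58.2 ± 2.77 CPM (log2 change -0.53, SE 0.069, adjusted p = 1.74e-05). Slc2a1 did not pass from E14.5 to PND0 (0.15, adjusted p = 0.134), and Cldn5 rose, from 40.6 CPM (0.51, adjusted p = 5.43e-06). The other endothelial gene that fell was Itm2a (-0.28, adjusted p = 0.0102). It did not pass in a fit of all 16 WT libraries (adjusted p = 0.399) or with the length offset (-0.15, adjusted p = 0.155), and from E14.5 it rose (0.38). The pan-endothelial gene Pecam1 stood at 30.9 and 29.7 CPM (adjusted p = 0.348) and the lipid transporter gene Mfsd2a at 25.2 and 29.6 CPM (adjusted p = 0.11). With the length offset Mfsd2a passed (0.24, adjusted p = 0.0456). Slc7a5, an amino acid transporter, rose by 1.10 on the log2 scale as an alternating gene, and by 0.58 from E14.5. Of 8 well expressed pericyte and smooth muscle genes 4 rose and 1 fell. The latter was Kcnj8, a potassium channel gene of pericytes (-0.46, adjusted p = 0.0467), and it did not pass from E14.5 (adjusted p = 0.373). Its call was lost without E16.5 replicate 2, 3 or 4 or PND0 replicate 3 or 4 (up to 0.102), with RLE scaling, DESeq2 or the covariate of sex-linked genes and in both wider fits (0.0533 to 0.0743). Pdgfrb and Rgs5 rose by 0.43 and 0.33, and Vtn did not pass (adjusted p = 0.322). Pdgfrb did not pass from E14.5 (adjusted p = 0.468) or in the fit of all 16 WT libraries (0.0926), and Rgs5 did not pass with the length offset (0.0655). Of 21 meningeal genes 10 rose and 4 fell, and 6 rose without E16.5 replicate 2. Ptgds, their prostaglandin synthase, rose from 146 ± 27.9 to 271 ± 45.2 CPM (log2 change 0.84, SE 0.14, adjusted p = 0.000365; adjusted p = 0.0581 in the fit of all 16 WT libraries), while the collagen genes Col1a1 and Col3a1 did not pass (adjusted p = 0.221 and 0.543). In the choroid plexus, Ttr ranged from 1 brain to the next within both groups and did not pass, at 669, 386, 768 and 573 CPM at E16.5 and 491, 557, 283 and 572 CPM at PND0 (adjusted p = 0.29), and Enpp2, which it shares with other cells, rose by 0.41.

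Genes of red blood cells fell in WT. Of 8 well expressed members (22 listed) 6 fell and 1 rose, and the summed level of the list went from 795 to 1562 CPM at E16.5 to 308 to 376 CPM at PND0. The alpha-globin gene Hba-a1 stood at 283, 210.1, 415 and 432 CPM at E16.5 and 109, 84.9, 95.3 and 90.3 CPM at PND0 (log2 change -1.87, SE 0.23, adjusted p = 0.000238), and the beta-globin gene Hbb-bs at 367, 305, 570.3 and 616 CPM at E16.5 and 124, 92.1, 115 and 102 CPM at PND0 (log2 change -2.15, SE 0.24, adjusted p = 0.000128). Neither gene's groups overlapped, and the brains differed less at PND0 than at E16.5. The second copies Hba-a2 and Hbb-bt had log2 fold changes of -3.85 and -3.74, but near-identical copies share reads, and how these were divided is not given. Alas2, the first enzyme of heme synthesis in red cells, fell from 18.2 ± 7.28 to 7.63 ± 1.75 CPM (log2 change -1.30, SE 0.28, adjusted p = 0.00228). In KO brains Hba-a1 did not pass: it stood at 199, 214, 168 and 248 CPM at E16.5 and 237, 90.1, 903 and 256 CPM at PND0 (log2 fold change 0.80, adjusted p = 0.388). KO PND0 replicate 3 was far above all others. The difference between the 2 steps did not pass (adjusted p = 0.0798). The member of the list that rose was Fech, the last enzyme of heme synthesis, which other cells make too (0.26, adjusted p = 0.0255). It did not pass without E16.5 replicate 4 or PND0 replicate 4 (adjusted p = 0.0904 and 0.0652), without the filter on low counts (0.0773) or with the length offset (0.265). How much blood a brain held when it was collected was not tested.

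Among regional neuron genes the changes were divided. Of 24 cortical projection neuron genes 9 rose and 6 fell. Mef2c, an activity-regulated factor of cortical neurons, stood at 256, 113, 169 and 101 CPM at E16.5 and 416, 314, 344 and 284 CPM at PND0 (log2 change 1.04, SE 0.31, adjusted p = 0.0293). The groups did not overlap, but the call lay close to the threshold and was lost without E16.5 replicate 2 or 3 or PND0 replicate 1, 2 or 3 (adjusted p of up to 0.0724), without the filter on low counts (0.0692) and with the length offset (0.0552). From E14.5 to PND0 it rose by 2.84. The upper layer factor Cux2 rose from 126 ± 16.9 to 178 ± 17.2 CPM (log2 change 0.45, SE 0.10, adjusted p = 0.00122), while the deep layer factors Bcl11b and Tbr1 did not pass (adjusted p = 0.142 and 0.789). PND0 replicate 3 was low for both, and without it Bcl11b passed (0.57, adjusted p = 0.00263). Bcl11b also passed in the fit of all 16 WT libraries (0.45, adjusted p = 0.0363). Of 28 interneuron and striatal genes 7 rose and 4 fell, 7 without PND0 replicate 3. The GABA-making enzyme gene Gad1 rose from 132 ± 17.7 to 232 ± 14.4 CPM (log2 change 0.76, SE 0.09, adjusted p = 8.53e-06) and the enkephalin precursor gene Penk from 9.14 ± 2.61 to 19.6 ± 3.48 CPM (log2 change 1.05, SE 0.19, adjusted p = 0.000379). Isl1, a factor of striatal progenitors and neurons, fell from 48.6 to 25.6 CPM (-0.97). The interneuron progenitor factor Dlx1 did not pass (adjusted p = 0.0585). Its fall passed without PND0 replicate 2 or 3 (0.0459 and 0.00477), with DESeq2 (0.0393) and with the length offset (0.0364). It also passed in the fit of all 16 WT libraries (0.0355) and in the fit with KO libraries (0.0293). The interneuron peptide gene Sst did not pass (adjusted p = 0.474). Of 15 cerebellar and midbrain genes 1 rose, the Purkinje cell gene Car8, and none fell, while 2 fell without E16.5 replicate 1 and 1 fell without E16.5 replicate 2 or PND0 replicate 4.

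Several hormone targets rose, led by Klf9, a transcription factor induced by both thyroid hormone and glucocorticoid. Klf9 (chr19:23141226-23168134, plus strand, build GRCm38) stood at 10.1, 7.59, 5.8 and 5.98 CPM at E16.5 and 29.5, 26.6, 26.9 and 26.5 CPM at PND0, a 3.58-fold rise without overlap (log2 change 1.84, SE 0.16, adjusted p = 5.42e-07). At E12.5 and E14.5 its means had been 3.59 and 2.76 CPM. Of 13 well expressed glucocorticoid targets 9 rose and 1 fell (median 0.59), the latter being Ddit4, also a target of hypoxia (-0.73, adjusted p = 0.00107). Ddit4 was an alternating gene and did not pass from E14.5 to PND0 (0.15, adjusted p = 0.365), a step in which none of the 13 fell. The kinase gene Sgk1 rose from 34.5 ± 4.21 to 53.9 ± 7.5 CPM (log2 change 0.59, SE 0.11, adjusted p = 0.000476) and the metallothionein gene Mt1 from 11.8 ± 2.52 to 28.6 ± 4.68 CPM (log2 change 1.22, SE 0.15, adjusted p = 1.42e-05). Other textbook targets did not pass: Tsc22d3, which encodes GILZ, stood at 46.1 and 48.8 CPM (adjusted p = 0.769) and the receptor gene Nr3c1 at 16.4 and 16.6 CPM (adjusted p = 0.815). Fkbp5, a cochaperone of the receptor, had an adjusted p of 0.0499 with a log2 fold change of 0.25, and the call was lost without any 1 library other than E16.5 replicate 1 and PND0 replicate 3 (up to 0.159), with DESeq2 (0.0534), with the covariate of sex-linked genes (0.063) and with the length offset (0.355). From E14.5 Fkbp5 did not pass (adjusted p = 0.627). Of 13 well expressed thyroid hormone response genes 5 rose and 1 fell, and 8 rose without E16.5 replicate 1. None fell without E16.5 replicate 2 or 4 or PND0 replicate 1 or 3. Dio2, the enzyme that makes active thyroid hormone in the brain, rose from 3.83 ± 1.24 to 12 ± 1.37 CPM (log2 change 1.59, SE 0.20, adjusted p = 1.27e-05) and was near 1 CPM or below at E12.5 and E14.5 (0.883 and 0.553). The receptor gene Thra did not pass (adjusted p = 0.0662). It passed without E16.5 replicate 1 (0.00489) and in the fit with KO libraries (0.0381).

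Clock genes and immediate early genes rose as well. Of 15 well expressed clock genes 10 rose and 1 fell, or 2 without E16.5 replicate 1. Npas2, a partner of the clock factor BMAL1 in the forebrain, rose from 3.26, 2.15, 3.08 and 1.61 CPM to 18.5, 14.3, 11.2 and 11.8 CPM, without overlap (log2 change 2.41, SE 0.23, adjusted p = 1.25e-06), whereas Clock, its close relative, fell from 53.5 ± 6.43 to 38.8 ± 3.86 CPM (log2 change -0.52, SE 0.10, adjusted p = 0.000667) but rose from E14.5 (0.25). Per1 rose from 48.5 ± 5.94 to 79.1 ± 7.4 CPM (log2 change 0.66, SE 0.10, adjusted p = 5.95e-05) and Per2 by 0.58 on the log2 scale (adjusted p = 0.00965; 0.0594 with the length offset). The hour of day of collection is not in the labels, and its part was not tested. Of 13 well expressed immediate early genes, which neurons switch on within minutes of activity, 9 rose and 1 fell, or 2 without PND0 replicate 2. Egr1 stood at 9.07, 4.64, 4.47 and 6.62 CPM at E16.5 and 16.3, 26.5, 37.2 and 17.6 CPM at PND0, without overlap (log2 change 1.93, SE 0.32, adjusted p = 0.000649), and Egr3 rose from 4.52 ± 2.05 to 14.9 ± 5.67 CPM (log2 change 1.66, SE 0.34, adjusted p = 0.00189). Fosl2 rose from 28.3 to 68.8 CPM (1.23). The gene that fell was Btg2, an antiproliferative gene of neurogenic progenitors, from 32.3 ± 5.99 to 16.4 ± 4.23 CPM (log2 change -1.03, SE 0.18, adjusted p = 0.000289).

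Of 21 well expressed genes of fetal growth 10 fell and 2 rose (median -0.32); 6 fell without E16.5 replicate 4 and 6 without PND0 replicate 1, near the share of all well expressed genes that fell. Igf2bp1 and Igf2bp2, RNA-binding proteins of the embryo, fell from 34.2 ± 4.96 to 20.6 ± 5.22 CPM (log2 change -0.79, SE 0.16, adjusted p = 0.00129) and from 44.7 ± 4.79 to 26.9 ± 7.14 CPM (log2 change -0.78, SE 0.17, adjusted p = 0.00217). At E12.5 they had stood at 147 and 147 CPM. The imprinted RNA H19 fell from 232 ± 64.9 to 133 ± 15.9 CPM (log2 change -0.85, SE 0.18, adjusted p = 0.00405; adjusted p = 0.0673 in the fit of all 16 WT libraries), while its neighbour Igf2 did not pass (adjusted p = 0.841). The imprinted RNA Meg3 rose from 3126 ± 569 to 4736 ± 489.8 CPM (log2 change 0.55, SE 0.12, adjusted p = 0.00164), 1 of the 5 largest gains in CPM. Igf1, the growth factor, was the other member that rose (0.37, adjusted p = 0.047), a call lost without E16.5 replicate 2 or 4 or PND0 replicate 1, 2 or 4 (up to 0.139), in the fit of all 16 WT libraries (0.443), in the fit with KO libraries (0.101) and with the length offset (0.182). In the switches of neuronal chromatin and splicing, the progenitor subunit gene Actl6a of the BAF complex fell from 42.9 ± 4.99 to 18 ± 2.5 CPM (log2 change -1.30, SE 0.12, adjusted p = 8.28e-07). Its neuronal counterpart Actl6b stood at 153 and 139 CPM and did not pass (adjusted p = 0.0723). The fall of Actl6b passed without PND0 replicate 2 (0.0382), without the filter on low counts (0.0419), in the fit with KO libraries (0.0418) and with the length offset (0.0208). Rest, the repressor of neuronal genes, fell from 26 ± 2.14 to 13.2 ± 1.42 CPM (log2 change -1.02, SE 0.11, adjusted p = 4.94e-06). The splicing repressor gene Ptbp2 fell by 0.35, and Ptbp1 stood at 85.9 and 82.9 CPM (adjusted p = 0.406).

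Axon guidance genes divided, with 15 of 34 higher and 5 lower. Dcc, the netrin receptor of commissural axons, fell from 116, 118, 131 and 124 CPM to 61.9, 64.7, 67.7 and 74.2 CPM, without overlap (log2 change -0.92, SE 0.075, adjusted p = 3.62e-07), with its lowest mean at PND0 of all 4 stages. Slit3, a repellent ligand, rose from 8.11 to 19.7 CPM (1.23), and the Slit receptor gene Robo1 did not pass (adjusted p = 0.281). In the fit of all 16 WT libraries Robo1 passed (0.14, adjusted p = 0.0469). In the extracellular matrix, the perineuronal proteoglycan gene Bcan rose from 62.3 ± 6.17 to 161 ± 5.56 CPM (log2 change 1.31, SE 0.079, adjusted p = 3.85e-08), having stood at 6.78 CPM at E12.5. Ncan had a log2 fold change of 0.84 and Vcan, the proteoglycan of the early matrix, had -0.88; both alternated, with 0.69 and -0.37 from E14.5. The growth factor gene Mdk fell 3.84-fold, from 81.2, 65.3, 105 and 101 CPM to 22.5, 23, 22 and 27.6 CPM, without overlap (log2 change -1.94, SE 0.14, adjusted p = 2.76e-07), and its relative Ptn fell by 0.33 but rose from E14.5 (0.80). Tnc, a matrix protein of the glial lineage, rose from 193 to 267 CPM (0.42; adjusted p = 0.077 in the fit of all 16 WT libraries).

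Of 22 well expressed cholesterol synthesis genes 9 rose and 3 fell (median 0.18), so the share that rose was not far from that of all well expressed genes; without E16.5 replicate 1 or 2 or PND0 replicate 4, 1 fell. The genes that fell were Acat2, Pmvk and Ebp (log2 fold changes of -0.28, -0.63 and -0.48), and from E14.5 none of the 3 passed (adjusted p = 0.278, 0.11 and 0.467). The call of Acat2 was lost without E16.5 replicate 1 or 2 or PND0 replicate 2 or 4 (adjusted p of up to 0.103), and that of Ebp without E16.5 replicate 1, 2 or 4 or PND0 replicate 3 or 4 (up to 0.0951). With the length offset neither passed (0.0695 and 0.128). Hmgcs1, an early enzyme, rose from 428 ± 44.3 to 695 ± 152 CPM (log2 change 0.65, SE 0.15, adjusted p = 0.00293) and Srebf2, the regulator of the pathway, from 248 ± 20.7 to 390.3 ± 49.9 CPM (log2 change 0.60, SE 0.093, adjusted p = 8.62e-05). From E14.5 Srebf2 did not pass (-0.025, adjusted p = 0.789). Dhcr7 itself stood at 66.6, 63.4, 62.1 and 59.1 CPM at E16.5 and 99.5, 99.4, 104 and 61.4 CPM at PND0, overlapping (log2 change 0.48, SE 0.14, adjusted p = 0.0101). PND0 replicate 4 was below the other 3 PND0 brains for Dhcr7 and Sqle. The call of the epoxidase gene Sqle (0.36, adjusted p = 0.0222) was lost without E16.5 replicate 3 or 4 or PND0 replicate 1, 2 or 3 (up to 0.0672) and with the length offset (0.177). Without PND0 replicate 4 the log2 fold change of Sqle was 0.49 (adjusted p = 4.925e-05) and that of Dhcr7 was 0.63 (adjusted p = 9.05e-06).

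In energy metabolism, the neuronal glucose transporter gene Slc2a3 rose from 53.9 ± 6.54 to 106 ± 16.9 CPM (log2 change 0.92, SE 0.12, adjusted p = 2.42e-05) and the brain hexokinase gene Hk1 from 163 ± 15 to 305 ± 17.1 CPM (log2 change 0.85, SE 0.079, adjusted p = 9.63e-07). Pkm, pyruvate kinase, fell from 700.2 ± 37.1 to 509.6 ± 47.1 CPM (log2 change -0.51, SE 0.079, adjusted p = 8.19e-05). Of 22 well expressed glycolysis and hypoxia genes 13 rose and 3 fell. Of 18 genes of fatty acid and ketone use 7 rose and 5 fell (median 0.0090), so both shares were not far from those of all well expressed genes. Oxct1 and Bdh1, the enzymes with which the brain uses ketone bodies, rose from 213 ± 10.2 to 358 ± 47.7 CPM (log2 change 0.70, SE 0.09, adjusted p = 1.78e-05) and from 98.1 ± 9.53 to 126 ± 3.26 CPM (log2 change 0.31, SE 0.074, adjusted p = 0.00261). Of the lactate dehydrogenase genes, Ldhb was lower as an alternating gene, with a log2 fold change of -0.53 and -0.31 from E14.5, and Ldha did not pass (adjusted p = 0.435) unless PND0 replicate 4, the lowest of its group, was left out (log2 fold change 0.31, adjusted p = 0.0123).

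Ribosomal proteins and the respiratory chain carried the alternating pattern most. These genes have many pseudogene copies, and how reads were divided among copies is not given. Of 36 cytosolic ribosomal protein genes 35 were lower at PND0 (median -0.82), and 28 alternated. Rps3 stood at 629.6, 616, 608 and 712 CPM at E16.5 and 314, 343, 318 and 338 CPM at PND0, without overlap (log2 change -1.02, SE 0.074, adjusted p = 1.52e-07), but its E12.5 and E14.5 means were 763 and 416 CPM. From E14.5 to PND0 35 of the 36 were also lower, with a smaller median of -0.42. Rpl11 changed by -1.68 from E16.5 and -0.50 from E14.5, and the short gene Rps29 (461 nt) by -2.66 and -0.75. Of 26 nuclear genes of oxidative phosphorylation 17 were lower and 1 higher, and 15 alternated. From E14.5 to PND0 only 2 were lower and 6 higher. Ndufa1, a complex I subunit, stood at 37, 13.8, 47 and 12.47 CPM at the 4 stages and did not pass from E14.5 (adjusted p = 0.413). Cox4i1 had a log2 fold change of -0.18 that turned to 0.37 with an offset for transcript length. Its call was lost without E16.5 replicate 1 or 3 or PND0 replicate 1 (up to 0.0901), with the replicate block (0.0523) and in the fit of all 16 WT libraries (0.0826), and it did not pass from E14.5 (0.871). Of 11 well expressed genes encoded in mitochondria 7 rose and none fell, or 1 without PND0 replicate 3. The cytochrome oxidase gene mt-Co1 went from 4534 ± 512 to 8309.6 ± 677 CPM (log2 change 0.82, SE 0.092, adjusted p = 5.07e-06) and alternated, with 0.51 from E14.5, and the cytochrome b gene mt-Cytb rose by 0.55 from E16.5 and 0.57 from E14.5. All mitochondrial transcripts took 1.14 to 1.46% of counts at E16.5 and 1.93 to 2.66% at PND0.

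Beyond the lists, the largest rises of well expressed genes without alternation included Pla2g3, a secreted phospholipase, from 2.59 ± 1.19 to 20.8 ± 2.22 CPM (log2 change 2.95, SE 0.24, adjusted p = 4.6e-07), and Stum, a neuronal membrane protein, from 32.6 ± 6.81 to 133 ± 10.4 CPM (log2 change 1.97, SE 0.13, adjusted p = 1.16e-07). Ptk2b, a calcium-activated tyrosine kinase of neurons, stood at 13.2, 3.48, 3.38 and 2.51 CPM at E16.5 and 46.8, 35.3, 34.9 and 25.3 CPM at PND0, without overlap (log2 change 2.61, SE 0.55, adjusted p = 0.00642). Its E16.5 replicate 1 was far above the other 3, and without that library the log2 fold change was 3.46. The tubulin gene Tuba4a rose by 1.95. Of the 15 largest falls of genes whose groups did not overlap and whose symbol is not that of a predicted model, 12 were alternating genes and the other 3 were Hba-a2, Hbb-bt and Neurog2. Of the 12, 4 were ribosomal pseudogenes, which share reads with their parent genes. Klhl11, one of the 12, had a log2 fold change of -2.84 from E16.5 and 0.30 from E14.5 (adjusted p = 0.416), and Atp5k, a subunit of ATP synthase, had -2.92 and -0.78.

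The same step was measured in KO brains, which share no library with the WT comparison. KO and WT libraries of a stage were deposited in 1 table, and the labels do not say which were prepared together. Agreement of KO with WT therefore cannot tell stage from a property that the libraries of a stage share. Of the 26 nuclear genes of oxidative phosphorylation, 15 were lower at PND0 in KO and 17 in WT, but only 2 from E14.5 to PND0 in WT. In KO, 8411 of 17433 genes passed (48.2%). Of 11290 well expressed genes tested in both, 7062 passed in WT and 6453 in KO (57.2%), 3181 higher (28.2%) and 3272 lower (29%). In the same direction 5194 passed in both, which is 73.5% of the WT calls and 80.5% of the KO calls, and 39 passed in opposite directions. The log2 fold changes correlated across genes (Pearson's r = 0.887, Spearman's rho = 0.874). Past 2-fold, 244 were higher and 288 lower in KO, against 523 and 500 in WT. Genes counted as well expressed by their WT levels only, so a gene at 10 CPM or more only in KO was left out. That choice can favour larger steps in WT, and its part was not tested. Of the cell division genes 27 fell in KO, of the synaptic vesicle and neurofilament genes 21 rose (median 0.53), and of the astrocyte genes 17 rose (median 0.58). Other lists had fewer calls in KO or another balance. Of the voltage-gated channel genes 14 rose and 3 fell (median 0.17), of the growing and migrating neuron genes 10 rose and 7 fell (median 0.014), and of the radial glia genes 7 fell (median -0.19). Of the red blood cell genes none fell in KO. These differences between KO and WT counts were not tested over lists. Gfap rose by 3.78 on the log2 scale in KO, Aqp4 by 2.74, Klf9 by 2.22 and Slc12a5 by 0.81, and Neurog2 fell by 2.38.

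A test of the difference between the KO and the WT step passed for 593 of 18510 genes (3.2%), and for 559 of 11293 well expressed ones (4.95%). The number was unstable: it was 157 without KO E16.5 replicate 3, 179 without WT E16.5 replicate 4, 197 without KO E16.5 replicate 1, 277 without WT PND0 replicate 3, 344 without KO E16.5 replicate 4 and 354 without WT PND0 replicate 1. In 445 of the 559, all well expressed by their WT levels, the WT step was the larger. How far this selection favoured WT was not tested. The 295 genes whose step was lower in KO (2.61%) had a median transcript length of 7210 nt and included 92 that alternated upward, and the 264 higher in KO (2.34%) had a median of 1384 nt and included 133 that alternated downward. The smallest p-values were those of Map3k9, a stress-activated kinase, which rose from 48.2 ± 4.59 to 94.1 ± 11.1 CPM in WT and went from 59.1 ± 6.99 to 48.9 ± 5.67 CPM in KO (0.29 from E14.5 in WT; difference -1.23 on the log2 scale, adjusted p = 0.000496), and of Mtor, the growth kinase (0.57 in WT, -0.15 in KO, adjusted p of the difference = 0.000496). The amino acid transporter gene Slc38a1 and the kinase gene Lmtk2 followed, with differences of -0.71 and -0.78 (adjusted p = 0.00141 for both). Of these, Map3k9, Mtor and Lmtk2 alternated in WT. From E14.5 to PND0 in WT Lmtk2 rose (0.74), Mtor did not pass (adjusted p = 0.554) and Slc38a1, which rose from E16.5 (0.34), fell (-0.28). Dhcr7, the targeted gene, stood at 17.4, 15.8, 17 and 17.6 CPM in the KO brains of E16.5 and at 15.5, 11.7, 16 and 15.2 CPM in those of PND0, all below every WT brain of these stages. Its step differed as well (difference -0.74, adjusted p = 0.032).

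**Figure D5:**
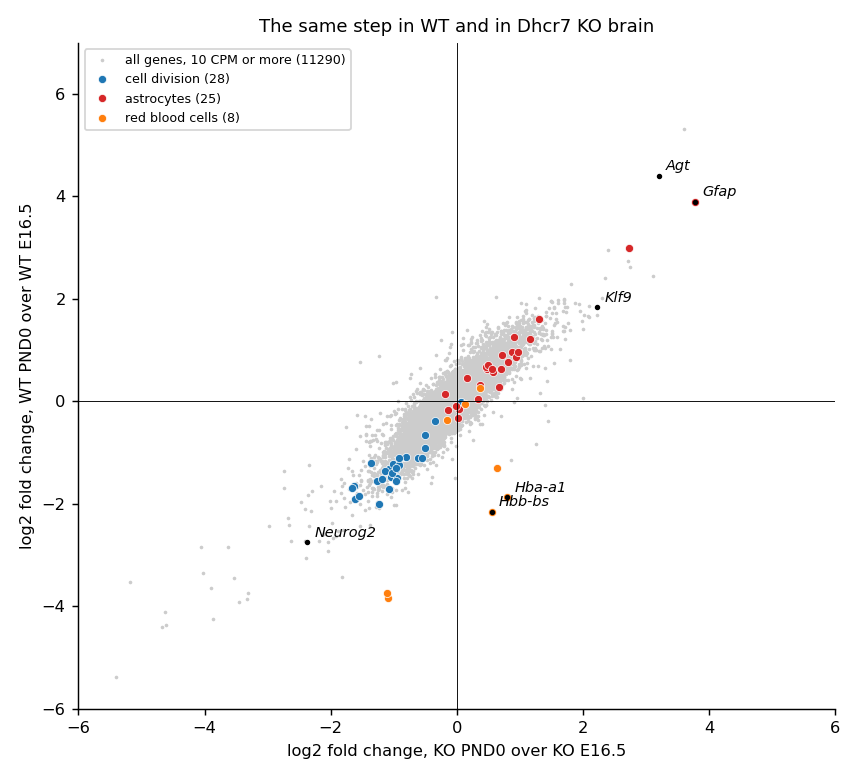
Each grey point is a well expressed gene, placed by its log2 fold change from E16.5 to PND0 in KO brain (x axis) and in WT brain (y axis). Cell division genes (blue) lie low and astrocyte genes (red) mostly high on both axes, and the globin genes (orange) Hba-a1 and Hbb-bs lie below 0 in WT and above 0 in KO.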

How the data were processed

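RNA of whole brains was isolated with the Qiagen Lipid RNeasy kit, enriched for polyA and sequenced as 150 bp paired-end reads on a NovaSeq 6000, per the labels' protocols. The values used are the raw read counts per gene symbol that the authors deposited, 1 table per stage. The submitters' processing notes name HISAT2, SAMtools, featureCounts and DESeq2 and the build mm10. Their versions, the annotation and the strand setting are not given in the sources used here, so reads of overlapping genes on opposite strands cannot be told apart. Symbols were matched to a GRCm38 annotation for position, type and the length of the longest transcript.

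The 4 WT libraries of PND0 were compared with the 4 of E16.5 by edgeR 4.0.16 (R 4.3.3): TMM scaling, filterByExpr with a minimum count of 10 and a total of 15, glmQLFit with robust estimation and glmQLFTest, with Benjamini-Hochberg adjustment over all 17438 genes tested and a threshold of 0.05. Fold changes are PND0 over E16.5. The KO step and the E14.5 to PND0 step were fitted alike, and the difference between KO and WT steps was a contrast of 4 group means over 16 libraries. WT levels are CPM with TMM over the 16 WT libraries, and KO levels are CPM with TMM over all 32. They are not divided by length, so levels are not compared between genes. Totals of 14895721 to 20569715 counts limit the precision of genes with few counts.

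The genes compared, the 44 gene lists (925 of their 927 genes were in the tables) and the alternatives were chosen with earlier results of these data known. Named genes were the 15 largest changes in each direction without overlap, the anchor genes of each list, up to 3 members a list in each direction, the 5 smallest p-values for a difference between KO and WT, and the 5 largest gains and losses in CPM. From these the text takes a selection, some genes are not reported here, and single exceptions within a list, such as Ccnd1, C1qa, Fech, Igf1 or Kcnj8, were picked after their values were seen. Alternating genes were defined after seeing the data. Alternatives were RLE and upper-quartile scaling, no filter, DESeq2 1.42.0, a replicate block, wider fits, a covariate of sex-linked genes, an offset for transcript length, each library left out, and alternating genes left out. The steps were tested on simulated data. No 2 WT libraries of E16.5, and no 2 of PND0, agreed within sampling noise. For the other groups this was not computed.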

Additional observations from a re-analysis of the deposited data

Results flagged for a closer look

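In 27 of 396 groups of 4 libraries (named genes at E16.5 and PND0 in WT, with 1 CPM or more in 1 library) 1 library stood apart, its gap to the nearest of the other 3 being above Dixon's 95% critical value, which chance gives in about 1 of 20 groups. So did 2 measures of the libraries: E16.5 replicate 1 had 3.75% of its counts on the rRNA gene CT010467.1, against 0.356 to 0.626%, and a TMM factor of 0.988 against 1.04 in the others.

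In WT E16.5 replicate 3, Slc1a3 stood at 175 CPM, with the other 3 at 186 to 188. In WT E16.5 replicate 1, Nhlh1 stood at 9.33 CPM with the other 3 at 11.96 or above. The same library had Flt1 at 27.3 (23.8 to 24.2), Dio2 at 5.68 (2.96 to 3.38), Thra at 781 (622 to 627) and Mt1 at 15.6 (10.3 to 11.1) CPM. It also had Fos at 4.11 (1.69 to 1.8) and Ptk2b at 13.2 (2.51 to 3.48) CPM. 

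In WT E16.5 replicate 2, Nefl stood at 164 CPM with the other 3 at 96.2 to 104. The same library had Nefh at 11.9 (5.46 to 5.87) and Nefm at 165.3 (112 to 121) CPM. In WT E16.5 replicate 4, Ptgds stood at 188 CPM, with the other 3 at 129.7 to 134. In WT PND0 replicate 3, Mcm2 stood at 17.9 CPM with the other 3 at 24 to 25.1. The same library had Nefl at 206 (151 to 155), Tbr1 at 108 (177 to 185) and mt-Co1 at 9320.0 (7905 to 8070.0) CPM. 

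In WT PND0 replicate 4, Fabp7 stood at 396 CPM with the other 3 at 466 to 474. The same library had Mfge8 at 114 (136 to 138), Syn1 at 269 (309.9 to 316), Cx3cr1 at 10.4 (14.7 to 14.9) and Dhcr7 at 61.4 (99.4 to 104) CPM. It also had Sqle at 151 (226 to 237) and Ldha at 188 (301 to 324) CPM. 

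In WT PND0 replicate 1, Dlgap1 stood at 192 CPM with the other 3 at 162 to 167. The same library had Penk at 24.8 (17.5 to 18.5), Klf9 at 29.5 (26.5 to 26.9) and Cox4i1 at 186 (199.9 to 200.5) CPM.

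For 18 named genes the change from E16.5 to PND0 differed between KO and WT brains in the test of the difference itself. The KO step lay above the WT step on the log2 scale by 0.77 in Hmgb2, by 0.51 in Tagln3, by 0.32 in Tubb2b, by 0.43 in Fabp5, by 0.32 in Rpl3, by 0.38 in Rps3, by 0.55 in Rpl11, by 0.72 in Ndufa1, by 0.38 in Gapdh and by 0.91 in Tomm7. It lay below it, with differences of -0.55 in Scn8a, -0.52 in Robo1, -0.74 in Dhcr7, -1.21 in Klhl11, -1.23 in Map3k9, -0.71 in Mtor, -0.71 in Slc38a1 and -0.78 in Lmtk2. The number of such genes among all genes changed more than 1.5 times when single libraries were left out, as given above, and no explanation was tested.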

How the results depend on the processing

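The count of genes that changed from E16.5 to PND0 in WT stayed within 1.5 times of 9282 under all alternatives, between 8255 and 9398 with 1 library left out (4036 to 4562 higher and 4219 to 4836 lower). Among well expressed genes the ranges were 3085 to 3484 higher and 3268 to 3619 lower. In KO they were 7310 to 9053 over all genes and 5646 to 6858 among well expressed ones. The count of genes whose step differed between KO and WT was the least stable: 593 became 1167 with DESeq2, and 559 well expressed ones became 1113. With 1 library left out these counts lay between 162 and 819 and between 157 and 768. An offset for transcript length moved the median of the well expressed genes by -0.0796 and the share of calls that were higher from 49.0% to 43.9% (3018 higher, 3854 lower). Of the 7062 well expressed calls 5998 kept call and direction under it, so a similar total does not mean the same genes. Among named genes 2 changed sign under it, Fabp7 to 0.11 and Cox4i1 to 0.37. The cause was not tested. Of 169 named genes that passed, 142 kept direction and call under all alternatives that held them, 26 lost the call under at least 1 and 2 changed sign. Many named genes were chosen for their large changes in these data, so this share does not stand for calls in general. The alternative without alternating genes was chosen after seeing the data and left 7152 calls, on fewer genes. It took these genes out of the main fit without refitting. It could therefore not change the call of any other gene and is no check of those calls.

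The replicate numbers did not pair the libraries. Deviations of same-numbered libraries correlated at -0.286 to 0.274 and exceeded 0.1 in 2 of 4 pairs, and 1 of 4 libraries correlated best with its own number. With the number as a replicate block 9129 genes passed in WT, 7939 in KO and 605 for the difference. Under it Eomes, Cox4i1 and mt-Nd5 lost their calls and Grin2b gained one.

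At these depths a count of 0 allows up to 0.201 CPM, so changes of genes near that level were not described.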
